A study of Mus musculus with 8 samples.

Results

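The replication-dependent histone genes encode the bulk of the proteins that package new DNA. They were taken here by name, as every gene that the deposited promoter and peak lists call Hist1h, Hist2h, Hist3h or Hist4h followed by its class. The lists named 39 such genes among 21604 genes in all. In RefSeq (GRCm38.p6, the assembly of mm10) 70 mouse genes carry such a name as symbol or synonym, and 69 of them have a curated transcript. Those 69 are the denominator of the shares below unless another is given, next to all 26220 RefSeq genes with a curated transcript. Of the 39 named genes, 27 were in a promoter list and 12 had a peak in fibroblasts and no other entry. The remaining 31 of the 70 were in no file. Names decide membership, so the set also holds Hist1h1t, Hist1h2aa and Hist1h2ba, which are known as testis histones.

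The study profiled 5-hydroxymethylcytosine, an oxidation product of methylated cytosine, in mouse cells of the ICR strain during the conversion of fibroblasts into neurons. The method was hMeDIP-seq, in which an antibody captures DNA fragments that carry the mark before sequencing. Single libraries came from induced neurons (iNs) that had been made out of mouse embryonic fibroblasts and taken at 1, 3, 5 and 7 dpi, a unit the labels leave unexplained, from hippocampal primary neurons of pups aged 1 day, and from the fibroblasts (MEFs) of E13.5 embryos. All cells had 3 to 5 passages in the labels, where MEFs are the negative and primary neurons the positive control, and 2 inputs (MEF and mixed) have no values of their own in what follows. The factors that turned fibroblasts into neurons are not named there. The assay reads DNA, so neither the labelled cell types nor the activity of the histone genes could be checked against expression.

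Histone genes of this kind are short, mostly lack introns and lie in clusters, with many near-identical copies. They are transcribed mainly while a cell copies its DNA, and their transcripts end in a stem-loop rather than a poly(A) tail. Core histones H2A, H2B, H3 and H4 form the nucleosome, and linker histone H1 binds where DNA enters and leaves it. Neurons have left the cell cycle and rely largely on replacement histones, which are made outside S phase from genes elsewhere. The replication-dependent genes are named by 4 loci: Hist1 on chromosome 13 with 55 of the 69 genes, Hist2 on chromosome 3 with 10, Hist3 on chromosome 11 with 3, and the lone Hist4h4 on chromosome 6. Of the 55 Hist1 genes 54 lie between chr13:21715711 and 23934913, and Hist1h2al, which RefSeq calls a transcribed pseudogene, lies apart at chr13:51200084-51203066. The files' names are older ones, and RefSeq now calls Hist1h4f H4c6 and Hist1h1c H1f2, for example.

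The sequences below are the start regions of 5 histone genes that the results turn on, each from 250 bases before to 50 bases after the transcription start site (TSS), taken from RefSeq (GRCm38.p6, mm10) and written 5′ to 3′ on the gene's strand. Capitals mark CG dinucleotides, the sites at which mammalian DNA mostly carries methylcytosine and its oxidised forms. Hist3h2a is shown because it was the only 1 of 63 histone windows in the table that a listed histone region touched. Only 62 of the 69 histone genes had a window. Hist1h3a had none, so its lost region, centred 216 bp downstream of the TSS, was not checked against a window. The windows of Hist1h4f, Hist1h1c and Hist1h2ac belong to the 3 genes with the highest MEF peaks among those that lost signal, and that of Hist4h4 to the gene most often listed with a gain.
Hist3h2a (H2A, chr11:58954435-58954734, plus strand): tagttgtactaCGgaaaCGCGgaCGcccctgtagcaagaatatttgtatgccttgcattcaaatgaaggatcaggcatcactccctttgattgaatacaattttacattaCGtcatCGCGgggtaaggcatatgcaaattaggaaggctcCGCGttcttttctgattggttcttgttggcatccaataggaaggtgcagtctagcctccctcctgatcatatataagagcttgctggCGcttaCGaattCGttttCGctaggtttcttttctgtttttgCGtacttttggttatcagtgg
Hist1h4f (H4, chr13:23551619-23551918, minus strand): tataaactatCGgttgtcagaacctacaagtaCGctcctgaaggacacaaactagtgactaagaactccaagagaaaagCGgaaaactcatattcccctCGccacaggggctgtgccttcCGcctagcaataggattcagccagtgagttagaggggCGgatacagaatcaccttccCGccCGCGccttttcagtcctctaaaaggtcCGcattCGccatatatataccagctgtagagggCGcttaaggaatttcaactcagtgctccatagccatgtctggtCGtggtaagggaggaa
Hist1h1c (H1, chr13:23738557-23738856, plus strand): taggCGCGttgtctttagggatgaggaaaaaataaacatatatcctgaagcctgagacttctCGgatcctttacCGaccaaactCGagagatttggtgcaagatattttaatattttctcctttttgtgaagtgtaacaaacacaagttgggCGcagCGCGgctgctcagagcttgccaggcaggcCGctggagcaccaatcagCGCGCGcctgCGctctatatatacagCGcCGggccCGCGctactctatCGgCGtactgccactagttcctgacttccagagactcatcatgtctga
Hist1h2ac (H2A, chr13:23683910-23684209, minus strand): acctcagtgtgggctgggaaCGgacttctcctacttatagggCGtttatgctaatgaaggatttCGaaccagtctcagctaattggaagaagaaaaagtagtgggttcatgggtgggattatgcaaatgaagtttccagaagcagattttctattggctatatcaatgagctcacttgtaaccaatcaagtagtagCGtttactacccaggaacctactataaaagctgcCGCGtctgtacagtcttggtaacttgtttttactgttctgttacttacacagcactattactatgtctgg
Hist4h4 (H4, chr6:136804382-136804681, minus strand): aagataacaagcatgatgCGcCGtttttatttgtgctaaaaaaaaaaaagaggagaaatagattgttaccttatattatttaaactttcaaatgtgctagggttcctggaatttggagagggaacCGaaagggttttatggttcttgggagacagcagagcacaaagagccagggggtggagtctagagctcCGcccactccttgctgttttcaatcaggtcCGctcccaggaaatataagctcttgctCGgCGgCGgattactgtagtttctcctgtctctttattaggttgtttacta
The Hist3h2a window held 14 CGs, and the region gained in primary neurons began at base 187 and ran past its last base, 300, which put 5 of the CGs in it. The nearest listed region to the other windows was 363 bp away for Hist1h4f with 13 CGs, 1205 bp for Hist1h1c with 19, 1590 bp for Hist1h2ac with 6 and 780 bp for Hist4h4 with 8.

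The histone genes differ from most genes in these windows. Among 62 histone genes with a window, the letters CCAAT occurred on either strand in 53 (85.5%), against 37.9% of 27025 genes. The letters TATAAA, known from core promoters, were found at any position of the window in 35 (56.5%), against 14.2% of all. In Hist1h4f, for example, they are the opening bases of the window, far upstream of the TSS. The octamer ATTTGCAT, known from H2B promoters, was found in 13 (21.0%), against 1.75% of all. In no histone window did any pair of these motifs overlap. The octamer letters were in 7 of 18 H2A and 6 of 16 H2B windows and in no window of another class. Windows of neighbouring H2A and H2B genes can cover the same bases, and both strands count. The 13 windows therefore need not hold 13 separate sites. CCAAT was in each of the 6 H1, 18 H2A, 16 H2B and 10 H3 windows and in 3 of 12 H4 windows. The median window held 11 CGs in histone genes (lowest 3, highest 41), against 7 over all genes, although its G and C content was lower, at 45.3% against 52.7%. Histone genes that lost signal in at least 1 comparison had a median of 11 CGs (18 genes), and those that lost none had 12 (44 genes). A match of letters describes the window and does not show that a factor binds it.

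For each of the 5 libraries other than MEF the authors deposited 2 promoter lists, hypo for regions with less signal than in MEFs and hyper for regions with more, all within about 2000 bp of a TSS. Here a gene is said to have lost signal if the hypo list holds it and gained if the hyper list does, as calls of the authors between 1 library and 1 library. No group had a replicate, so no comparison was tested across samples. The intervals of read ratios below cover counting error alone. Those of gene shares treat genes as independent draws, which neighbouring and near-identical genes are not. All 5 comparisons share the MEF library. The deposited signal was made of whole reads times a factor, and a read of the other library counted 1.78 MEF reads at 1 dpi, 1.75 at 3, 5 and 7 dpi and 1.80 in primary neurons, while total library depth is not known here. The share of cells that carry the mark and the amount of mark per cell cannot be told apart in such bulk DNA. Reads from near-identical histone copies may be shared out, and how multiply mapped reads were treated is not given in the sources used here, which makes values inside the genes uncertain.

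Histone genes lost signal in every library relative to MEFs and seldom gained it. At 1 dpi 17 of 69 had lost signal (24.6%, exact Clopper-Pearson 95% interval 15.1 to 36.5), where the hypo list held 36.8% of all genes. At 3 dpi 19 had (27.5%, 17.5 to 39.6), where the list held 34.3% of all genes, and at 5 dpi again 19, where it held 34.1%. At 7 dpi 17 had, where the list held 34.3%, and in primary neurons 18 had (26.1%, 16.3 to 38.1), where it held 34.8%. The share of histone genes was thus below that of all genes in each of the 5 comparisons. At 1 dpi the interval ended at 36.5, barely under the 36.8% of all genes. It treats clustered genes as independent, so no difference is read from it. That order turns with the denominator in the comparisons other than 1 dpi: of the 39 named histone genes 43.6%, 48.7%, 48.7% and 43.6% lost signal at 1, 3, 5 and 7 dpi and 46.2% in primary neurons, where 44.8%, 41.8%, 41.5%, 41.8% and 42.4% of all genes named in any list did. Both of these denominators depend on the outcome, since they hold only genes that entered a list. Of the 39, 27 did so through a promoter list and 12 through a MEF peak alone. It also turns with the threshold at 1, 3, 5 and 7 dpi, though on 2 or 3 genes each, and not in primary neurons: under a deposited p-value below 1e-10, 3, 3, 2 and 2 of 69 lost signal at 1, 3, 5 and 7 dpi (4.35%, 4.35%, 2.90% and 2.90%) and 1 in primary neurons (1.45%), where 2.43%, 1.78%, 1.74%, 1.94% and 1.91% of all genes did. With each ratio taken relative to the median listed region, 7 or 8 histone genes lost signal per comparison (10.1% or 11.6%), where 11.8% to 13.9% of all genes did. With any region within 2000 bp of a RefSeq TSS counted, an alternative added after the data were seen, the gap was narrower in each comparison. Of 62 histone genes 33.9%, 35.5%, 33.9%, 30.6% and 37.1% lost signal, where 39.8%, 37.3%, 37.0%, 37.3% and 37.9% of all genes did.

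Gains were few. None of the 69 histone genes was in the hyper list at 1 dpi or at 7 dpi, which allows a share of up to 5.21% (exact upper limit), where those lists held 11.7% and 7.44% of all genes. At 3 dpi 3 histone genes had gained (4.35%, 0.906 to 12.2), where 10.9% of all genes had. At 5 dpi 5 had (7.25%, 2.39 to 16.1), where 16.9% of all genes had, and in primary neurons 3 had, where 7.43% of all genes had. In at least 1 comparison 8 histone genes gained, where 36.5% of all genes did, and none gained in all 5, where 0.313% of all genes did.

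The same names recurred. Of 20 histone genes that lost signal in at least 1 comparison, 13 did so in all 5, 6 in 4 and 1 (Hist1h4k) at 5 dpi alone. Of all genes 41.2% lost signal in at least 1 comparison and 24.7% in all 5. The 13 were Hist1h1c, Hist1h2ac, Hist1h2bj, Hist1h2bl, Hist1h3a, Hist1h3d, Hist1h3g, Hist1h3i, Hist1h4b, Hist1h4d, Hist1h4f, Hist2h4 and Hist3h2ba. Each comparison sets another library against the same MEF reads, so the recurrence is given as a count. By class, 1 of 6 H1, 2 of 19 H2A, 5 of 19 H2B, 5 of 12 H3 and 7 of 13 H4 genes lost signal at least once. These counts are small, and the classes were not tested against each other. By name it was 17 of the 55 Hist1 genes, 2 of 10 in Hist2, 1 of 3 in Hist3 and not Hist4h4.

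Listed regions of the same direction that overlapped between comparisons are called a locus here, and a region without such overlap is a locus by itself. The 96 hypo entries of histone genes fell on 23 loci, of which 13 were listed in all 5 comparisons, and the 11 hyper entries fell on 9. In 48 of the hypo entries the other library had 0 reads, in 20 it had 1 and in 28 it had 2 to 11, against 15 to 57 MEF reads. The median log2 ratio to MEF over hypo histone regions was -2.85 at 1 dpi, -2.51 at 3 dpi, -2.67 at 5 dpi, -2.49 at 7 dpi and -2.57 in primary neurons. Over all hypo regions it was -2.17, -2.28, -2.25, -2.31 and -2.15 in the same order. These medians hold bounds as well as measured ratios, and the share of regions at 0 reads differed, at 50%, 57.9%, 45%, 55.6% and 42.1% of histone regions, against 68.4%, 55.9%, 57.2%, 56.3% and 62.8% of all, so the medians are not compared. A ratio to 0 reads was computed as if 3 reads had been counted. Such a bound is given with the words at least, and it takes the higher library's reads as exact. The lower bound of its counting interval is smaller, for example 7.93-fold where 10.1-fold is given for Hist1h1c at 7 dpi.

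Among the linker histones, Hist1h1c, a somatic H1, lost signal throughout at a region centred 1444 bp downstream of its TSS and beyond the end of the gene (chr13:23740061-23740440). The region held 1, 1, 6 and 0 reads at 1, 3, 5 and 7 dpi and 3 in primary neurons, against 53 in MEFs. All 5 libraries lay far under MEFs, with 5 dpi the highest of them. Signal was 29.8-fold (5.12 to 1199) lower at 1 dpi, with the 95% exact conditional Poisson interval in brackets here and below. It was 30.3-fold (5.21 to 1218) lower at 3 dpi, 5.05-fold (2.17 to 14.4) at 5 dpi, at least 10.1-fold at 7 dpi and 9.82-fold (3.18 to 49.1) in primary neurons. The intervals of all these overlap, but they share the same 53 MEF reads, so their overlap does not decide an order among the libraries. The libraries were not tested against each other. Hist1h1b and Hist1h1d, a further pair of somatic linker histones, gained at 5 dpi and were in no other promoter list. Each had 10 reads at 5 dpi, against 0 in MEFs, a rise of at least 5.83-fold. The regions were centred at 1974 bp from the Hist1h1b TSS and at -1611 bp from that of Hist1h1d, where a minus sign means upstream.

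Of the H2A genes, which with H2B form the outer dimers of the nucleosome, Hist1h2ac lost signal in all 5 comparisons. Its region lay 1829 bp downstream of the TSS (chr13:23681941-23682320). It held 0 reads at 1, 3 and 5 dpi and 1 read each at 7 dpi and in primary neurons, against 46 in MEFs. Nothing above a single read was thus counted outside MEFs. Signal was at least 8.63-fold lower at 1 dpi, at least 8.76-fold at 3 and at 5 dpi, 26.3-fold (4.49 to 1060) at 7 dpi and 25.6-fold (4.36 to 1031) in primary neurons. Hist1h2an held 0 reads at 1, 3 and 5 dpi and in primary neurons, against 19 in MEFs, and was not listed at 7 dpi. Hist1h2ab went the other way, with 13 reads at 3 dpi, against 0 in MEFs, at chr13:23749001-23749340, a rise of at least 7.58-fold. In primary neurons a separate region closer to its TSS (chr13:23749601-23749820) held 9 reads, against 0 in MEFs, a rise of at least 5.40-fold. Hist3h2a gained in primary neurons alone, with 12 reads, against 0 in MEFs. This was at least 7.20-fold higher, with 5.00 as the lower bound of the counting interval. Its region (chr11:58954621-58954940) was centred 96 bp downstream of the TSS and was the only hyper locus on a histone gene itself.

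No H2B gene was listed with a gain in any comparison. A region is listed for 1 gene, however. The Hist3h2a gain in primary neurons also lies within 2000 bp of Hist3h2bb (chr11:58954048-58954512), an H2B name that RefSeq calls a transcribed pseudogene. Hist1h2bl and Hist3h2ba held 0 reads in all 5 libraries, against 15 MEF reads for Hist1h2bl and 19 for Hist3h2ba. These had the fewest MEF reads among the losses seen in all 5 comparisons, and the bound reached no more than at least 2.86-fold lower for Hist1h2bl and at least 3.62-fold lower for Hist3h2ba. Hist1h2bj (chr13:22044941-22045320, 1901 bp downstream of the TSS) held 1, 0, 2 and 0 reads at 1, 3, 5 and 7 dpi and 2 in primary neurons, against 24 MEF reads in the narrower 1 dpi region and 30 in the others. Signal there was 13.5-fold (2.20 to 555) lower at 1 dpi, at least 5.71-fold at 3 and at 7 dpi, 8.57-fold (2.17 to 74.0) at 5 dpi and 8.33-fold (2.11 to 72.0) in primary neurons. Hist1h2bh was not listed at 1 dpi and held 1, 1 and 0 reads at 3, 5 and 7 dpi and 1 in primary neurons, against 25 or 26 in MEFs. Hist1h2bn held 0 reads wherever it was listed (1, 3 and 5 dpi and primary neurons), against 17 in MEFs. All H2B losses lay downstream of the gene they were listed for.

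The H3 genes, whose products pair with H4 in the nucleosome's core tetramer, included 4 that lost signal in all 5 comparisons. Hist1h3g (chr13:23536161-23536900, 1113 bp downstream of the TSS) held 1, 2, 0 and 0 reads at 1, 3, 5 and 7 dpi and 1 in primary neurons, against 47 in MEFs, or 23 in the shorter region listed at 7 dpi. That made it 26.4-fold (4.52 to 1066) lower at 1 dpi, 13.4-fold (3.52 to 114) at 3 dpi, at least 8.95-fold at 5 dpi, at least 4.38-fold at 7 dpi and 26.1-fold (4.46 to 1053) in primary neurons. At 1 dpi a further region of Hist1h3g (chr13:23537221-23537600) held 2 reads, against 36 in MEFs. Hist1h3i (chr13:21782221-21782840) held 1, 0, 0 and 1 reads at 1, 3, 5 and 7 dpi and 0 in primary neurons, against 45 in MEFs, or 25 in the shorter region of 5 dpi. It was 25.3-fold (4.32 to 1022) lower at 1 dpi, at least 8.57-fold at 3 dpi, at least 4.76-fold at 5 dpi, 25.7-fold (4.39 to 1038) at 7 dpi and at least 8.33-fold in primary neurons. In both genes every library outside MEFs was at 2 reads or fewer.

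Hist1h3a was the one histone gene whose lost region overlapped the gene (chr13:23761981-23762360, centred 216 bp downstream of the TSS). It held 1, 0, 4 and 1 reads at 1, 3, 5 and 7 dpi and 2 in primary neurons, against 37 in MEFs. Signal was 20.8-fold (3.51 to 844) lower at 1 dpi, at least 7.05-fold at 3 dpi, 5.29-fold (1.90 to 20.4) at 5 dpi, 21.1-fold (3.57 to 857) at 7 dpi and 10.3-fold (2.65 to 88.0) in primary neurons. Hist1h3d (chr13:23576501-23576880) kept a few reads everywhere and held 3, 4, 1 and 2 reads at 1, 3, 5 and 7 dpi and 3 in primary neurons, against 32 in MEFs. Its fold was 4.57-fold (1.62 to 17.8) at 3 dpi, the smallest, and 18.3-fold (3.05 to 745) at 5 dpi, the largest, with intervals that overlap. Hist2h3b held 0 reads at 1, 3 and 7 dpi and in primary neurons, against 21 in MEFs, and was not listed at 5 dpi.

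More H4 genes than genes of any other class were listed at least once, in either direction. Hist1h4f had the most MEF reads of any histone region, centred at -827 bp from its TSS (chr13:23552281-23552660). It held 0, 3, 4 and 2 reads at 1, 3, 5 and 7 dpi and 11 in primary neurons, against 57 in MEFs. Primary neurons kept more reads there than any of the induced neurons, though still far fewer than MEFs. Signal was at least 10.7-fold lower at 1 dpi, 10.9-fold (3.53 to 54.2) at 3 dpi, 8.14-fold (3.01 to 30.9) at 5 dpi, 16.3-fold (4.31 to 138) at 7 dpi and 2.88-fold (1.49 to 6.09) in primary neurons, and the interval of primary neurons overlaps those of 3, 5 and 7 dpi. On the other side of the gene (chr13:23550141-23550460) Hist1h4f held 1 read at 1 and 5 dpi, 0 at 7 dpi and 1 in primary neurons, against 26 in MEFs, and this side was not listed at 3 dpi.

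Hist1h4b kept some reads in every library. Its region, centred at -1730 bp from the TSS (chr13:23755101-23755480) held 8, 6, 4 and 8 reads at 1, 3, 5 and 7 dpi and 6 in primary neurons, against 43 in MEFs. Signal was 3.02-fold (1.41 to 7.45) lower at 1 dpi, 4.10-fold (1.74 to 11.8) at 3 dpi, 6.14-fold (2.23 to 23.6) at 5 dpi, 3.07-fold (1.43 to 7.56) at 7 dpi and 3.98-fold (1.69 to 11.4) in primary neurons. Hist1h4d (chr13:23583281-23583660) held 0 reads in every library but 5 dpi, which had 2, against 29 in MEFs. Hist1h4a held 0, 1, 2 and 1 reads at 1, 3, 5 and 7 dpi, against 23 in MEFs, and was not listed in primary neurons. Hist1h4i held 0 reads at 3, 5 and 7 dpi and in primary neurons, against 16 in MEFs, and Hist1h4k held 0 at 5 dpi, against 21.

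Hist2h4 was the only histone gene listed in both directions. Its hypo region (chr3:96261801-96262180, 1327 bp downstream of the TSS) held 2, 3, 3 and 3 reads at 1, 3, 5 and 7 dpi and 3 in primary neurons, against 35 in MEFs. The loss was nearly level across libraries, at 9.84-fold (2.53 to 84.5) lower at 1 dpi, 6.67-fold (2.1 to 33.9) at 3, 5 and 7 dpi and 6.48-fold (2.04 to 32.9) in primary neurons. At 5 dpi the adjoining chr3:96261581-96261840 was in the hyper list with 9 reads, against 0 in MEFs, a rise of at least 5.25-fold. It overlapped the hypo region by 40 bp and ran into the 4.54-fold MEF peak of Hist2h4 (chr3:96261744-96262223). Its 0 MEF reads are thus a count in a window that meets a called MEF peak. By these counts the 5 dpi library had reads where MEFs had none and few where MEFs had many, in regions that partly overlap.

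Hist4h4, an H4 gene that stands alone outside the clusters, gained more often than any other histone gene. Upstream of its TSS (between chr6:136805461 and 136805840) it held 12 reads at 3 dpi, 10 at 5 dpi and 9 in primary neurons, against 0 in MEFs. That was at least 7.00-fold higher at 3 dpi, at least 5.83-fold at 5 dpi and at least 5.40-fold in primary neurons. It was not listed at 1 or 7 dpi, which does not show that signal was absent there. Hist1h4j at 3 dpi and Hist1h4h at 5 dpi each had 9 reads, against 0 in MEFs. All 11 gains of histone genes had 0 MEF reads and 13 reads at most. The lower bounds of their counting intervals ran from 3.45 to 5.33, under the folds given.

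**Figure D1:**
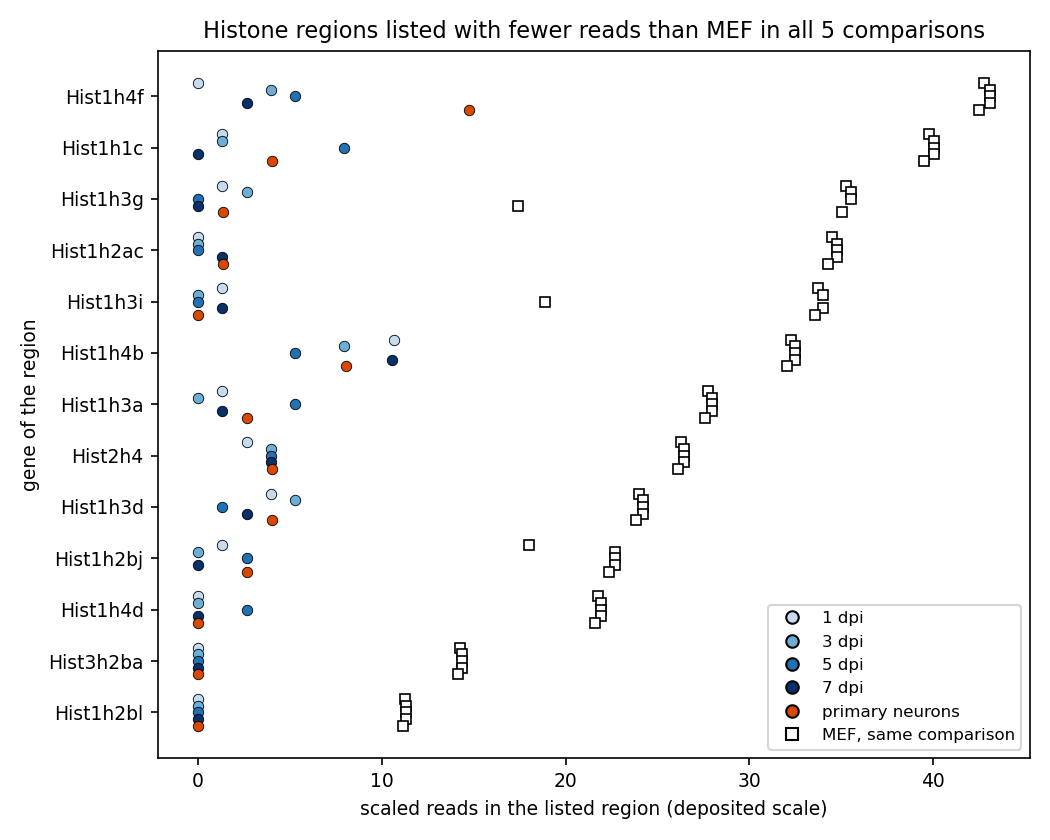
Scaled reads, as deposited, in the 13 histone regions that lost signal in all 5 comparisons (rows, by MEF reads). Filled circles are the other libraries and open squares MEFs on the scale of the same comparison; each circle lies left of its square, and the circle farthest right is primary neurons at Hist1h4f, with 11 reads against 57 in MEFs.

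Lost regions of histone genes lay beside the genes more than on them. Of the 23 hypo loci 18 lay downstream of the gene's end, 75 to 1403 bp from it, 4 lay upstream, 613 to 1848 bp away, and 1 overlapped the gene. The median length of a histone gene is 491 bp, so a window of 2000 bp on either side of the TSS reaches well past its end. In each comparison 1 histone region was centred within 500 bp of the TSS, where 20.2% of all hypo regions were at 1 dpi, 20.5% at 3 dpi, 20.7% at 5 dpi, 20.5% at 7 dpi and 20.6% in primary neurons. The centre was downstream of the TSS for 16 of 20 histone regions at 1 dpi, 16 of 19 at 3 dpi, 18 of 20 at 5 dpi, 15 of 18 at 7 dpi and 16 of 19 in primary neurons, where 49.6% to 50% of all regions were. Sides are counted from the gene that the list names. A region downstream of that gene can lie upstream of an unlisted neighbour, as the Hist1h2an region does for Hist1h2bp. How far the assignment makes the excess downstream was not tested. Gains were split, with 5 hyper loci upstream, 3 downstream and 1 on a gene. The 5 comparisons look at largely the same MEF places, so their counts are not independent.

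**Figure D2:**
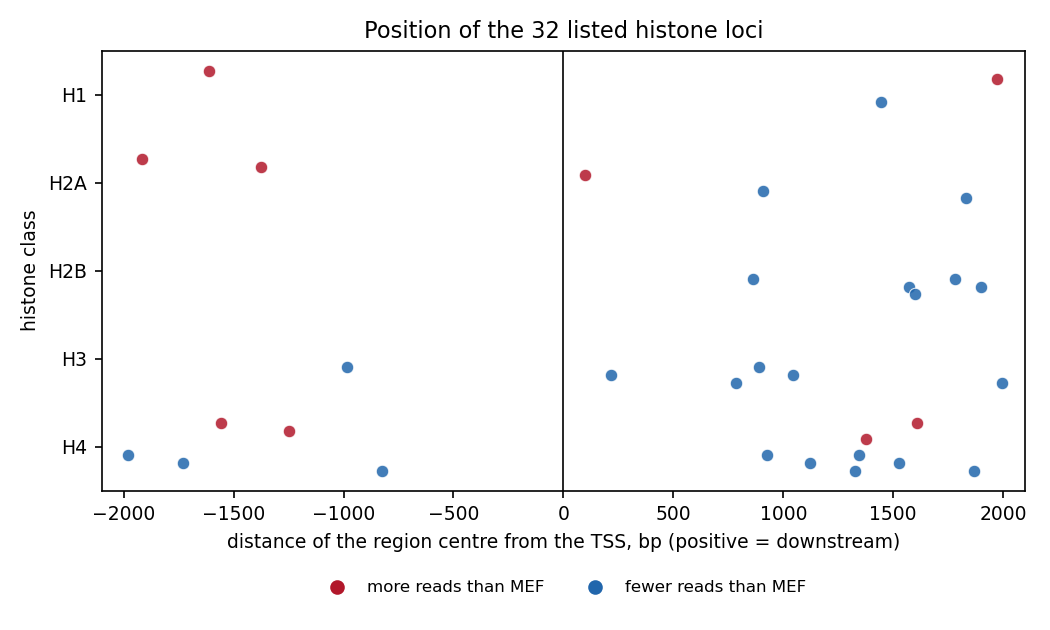
Distance of the centre of each of the 32 histone loci from the TSS of its gene in bp (positive is downstream), by histone class. Red points are loci with more reads than MEFs and blue points loci with fewer. Of the 23 blue loci 18 lie beyond the gene's downstream end, and no locus listed for an H2B or H3 gene is red.

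Peaks, which the authors called in each library by itself, were found at histone genes in MEFs alone. No histone gene had an assigned peak in any of the 4 induced neuron libraries or in primary neurons, which allows up to 5.21% each. The share of all genes with one was below that limit in each library, at 0.805% at 1 dpi, 3.86% at 3 dpi, 3.41% at 5 dpi, 4.71% at 7 dpi and 1.62% in primary neurons. In MEFs 27 of 69 histone genes had one (39.1%, 27.6 to 51.6), where 75.6% of all genes did. Both H4 (7 of 13) and H3 (6 of 12) had peaks more often than H2A (3 of 19), with H1 at 3 of 6 and H2B at 8 of 19. In these lists a peak can be given to a gene at any distance. With any MEF peak within 2000 bp of the TSS counted instead, 15 of 62 histone genes had one (24.2%), where 27.2% of all genes did.

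The 27 genes shared 36 MEF peaks, with Hist1h2bq and Hist1h2br listed for the same 3. Their fold enrichment, the authors' own value per peak, had a median of 4.92 (2.56 to 8.44), and that of all 176853 MEF peaks was 4.54. Tags at the summit had a median of 41 (21 to 66), against 38 over all MEF peaks. The highest histone peaks were those of Hist1h2bp (an H2B gene) and Hist2h2bb, both 8.44-fold with 66 tags, 4521 and 7850 bp from the TSS. Then came Hist1h2ac at 7.60-fold, Hist1h4f at 7.31-fold and Hist1h1b and Hist1h1c at 6.81-fold each. The highest stood at percentile 96.7 of all MEF peaks, and no histone peak reached 10-fold. The authors placed 13 of the 36 at a promoter (36.1%, 20.8 to 53.8), where 3.24% of all MEF peaks were, 4 in a gene body, where 24.4% of all were, and 19 as intergenic, where 72.4% were. These shares are per peak and set peaks of short, clustered genes against those of the whole genome. Per gene there was no excess: 24.2% of 62 histone genes had a MEF peak within 2000 bp of the TSS, where 27.2% of all genes did. A promoter or gene body peak was assigned to 20.3% of 69 histone genes, where 51.9% of all genes had one.

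The 13 promoter peaks belonged to 12 genes. After Hist1h4f and Hist1h1c came Hist1h3g with 6.05-fold and 4.78-fold peaks, Hist1h3i at 5.80-fold, Hist1h4b at 5.40-fold, Hist1h3a at 4.79-fold and Hist2h4 at 4.54-fold. Lower still were Hist1h3d at 4.16-fold, Hist1h2bj at 3.91-fold, Hist1h4d and Hist1h4a at 3.78-fold each and Hist2h3b at 2.77-fold. All 12 had also lost signal in the promoter lists in at least 4 of the 5 comparisons. These 12 were picked by their MEF peak, and the matching share of all genes with a promoter peak in MEFs was not computed. In all, 14 of the 36 peaks met a lost histone region, and 14 of the 23 hypo loci lay on such a peak. Per comparison 14 of 20 hypo histone regions met a MEF peak at 1 dpi (70%), 13 of 19 at 3 dpi (68.4%), 12 of 20 at 5 dpi (60%), 13 of 18 at 7 dpi (72.2%) and 12 of 19 in primary neurons (63.2%), where 46.3%, 49.7%, 49.8%, 49.2% and 48.3% of all hypo regions did. Histone hypo regions also held more MEF reads, a median of 30.5, 30, 27.5, 29.5 and 30 in that order, against 23 at 1 dpi and 24 in the others over all hypo regions. Both lists use the MEF library, so this overlap is a description of it. Of the 27 genes with a MEF peak 13 had lost signal at least once, and 7 genes lost signal without an assigned peak. The matching share of all genes with a MEF peak was not computed. Of all genes, with or without a peak, 41.2% lost signal at least once.

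**Figure D3:**
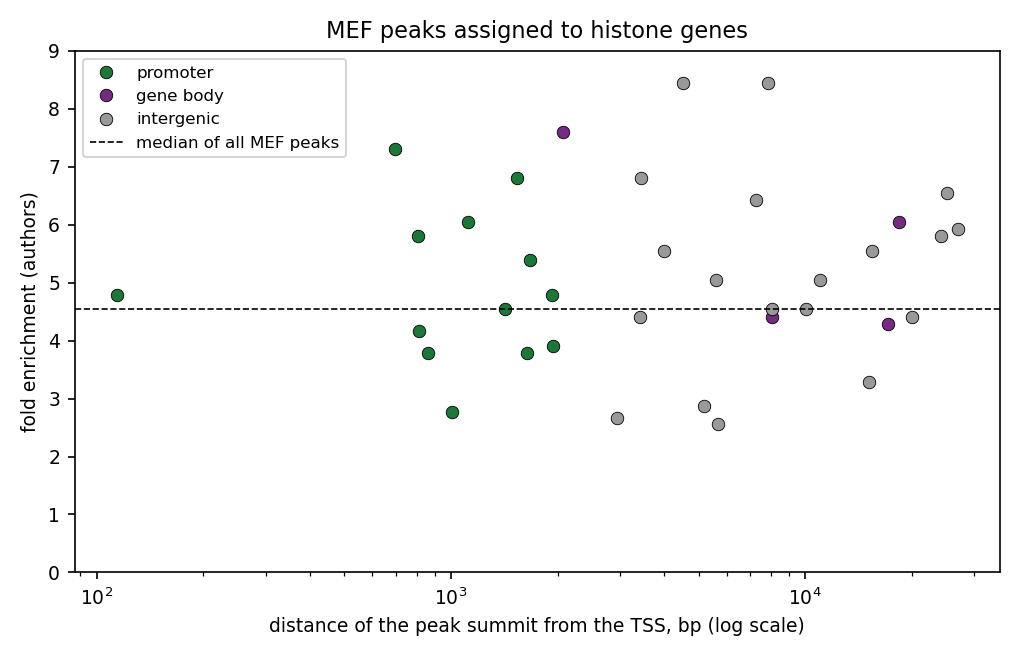
Fold enrichment (authors' value, linear axis) of the 36 MEF peaks assigned to histone genes against the distance of the summit from the TSS in bp (log axis), coloured by the authors' placement. The dashed line is the median of all MEF peaks, 4.54; peaks at promoters and far from genes both lie on either side of it, and the highest 2 reach 8.44.

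In the deposited lists, genes of other kinds that sit among the Hist1 genes were listed more often than the histone genes. A histone region was listed for 1 gene even where another histone TSS lay within 2000 bp. The Hist1h2an region, for example, also lies within 2000 bp of the TSS of Hist1h2bp, which no promoter list holds. Counts by any region within 2000 bp are not given for this span. The span of the Hist1 cluster without the distant Hist1h2al (chr13:21715711-23934913) holds 54 histone and 55 other genes with a curated transcript. Of the 54 histone genes 14, 16, 17 and 14 lost signal at 1, 3, 5 and 7 dpi and 15 in primary neurons. Of the 55 others 28 lost signal at 1 dpi (50.9%), 22 at 3 dpi (40%), 26 at 5 dpi (47.3%), 26 at 7 dpi (47.3%) and 23 in primary neurons (41.8%). Gains were called for 0, 2, 3, 0 and 1 of the histone genes and for 11, 9, 19, 5 and 5 of the others. In MEFs 166 peaks lay in this span, of which 26 were assigned to histone genes, and 45 of the 55 other genes had one. Outside MEFs the span held 1 peak, at 3 dpi (chr13:23403283-23403774, 4.0-fold), assigned to Abt1. The Hist2 span holds no other gene with a curated transcript, so it offers no such comparison, and its 5 MEF peaks were all assigned to histone genes.

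Genes that work with the replication-dependent histones were counted from 3 lists, to be read against the shares of all genes: 36.8%, 34.3%, 34.1% and 34.3% lost signal at 1, 3, 5 and 7 dpi and 34.8% in primary neurons, and 11.7%, 10.9%, 16.9%, 7.44% and 7.43% gained. Of 13 replacement and variant histones, such as H2afz and H3f3b, 4, 4, 3 and 4 lost signal at 1, 3, 5 and 7 dpi and 4 in primary neurons, while 2, 2, 1, 0 and 0 gained. Of 20 matched genes for histone transcript processing and locus control (21 listed), such as Slbp, which encodes the stem-loop binding protein, and Npat, a coactivator of histone genes, 8, 10, 8, 6 and 10 lost signal and 3, 4, 0, 0 and 3 gained. Of 20 histone chaperones 7, 4, 5, 5 and 6 lost signal and 2, 2, 3, 0 and 1 gained. The largest measured folds were of Srrt (1 read in primary neurons, against 66 in MEFs) and Lsm11 (1 at 7 dpi, against 37), which take part in RNA processing, and of Nap1l4 (1 at 5 dpi, against 46) and Nap1l1 (1 at 5 dpi, against 30), which carry H2A and H2B. Among the replacement histones they were of H2afv (1 at 5 dpi, against 38) and H1foo, the oocyte linker histone (1 at 7 dpi, against 36). A MEF peak was assigned to 27 of the 69 replication-dependent genes, against 9 of the 13 replacement histones, all 20 matched processing genes, 18 of the 20 chaperones and 75.6% of all genes.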

How the data were processed

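Of 8 samples, 6 hMeDIP libraries had processed files, 1 per group. The submitters' processing notes name mm10 as the build and CASAVA and Bowtie2 2.1.0 as tools. Total depth, the input behind each library, the callers of peaks and of differences and their settings are not given in the sources used here. There were 10 promoter lists and 6 peak lists, all as deposited. Per the file headers, columns were tied to libraries by the codes hM001 to hM006. The labels of the 3, 5 and 7 dpi samples name hM001 for a hyper list, and the headers were followed.

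The authors deposited a fold enrichment (a ratio) for each peak and a whole-number count of tags at its summit. The peak column headed q-value held values above 1, and this deposited column was read as −log10 of q. The promoter lists hold a p-value and a q-value that the authors gave for 1 library against 1 library, with 0.000748 the highest p-value and 0.00684 the highest q-value among histone regions. The promoter signal, deposited as a count, was not whole. It was whole reads times 1 factor per library and comparison, since 100% of values, once divided by it, lay within 0.1 of a whole number. The recovered reads give depth and ratios, and no count model was fitted. On simulated data, with 12000 values per factor, the read count was recovered for 100% of values.

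Tables were read with pandas 2.3.3 and numpy 2.4.6 in python 3.11.15, intervals came from scipy 1.17.1, and plots were drawn in matplotlib 3.10.9. A log2 ratio was computed from the signal the authors deposited, and a count of 0 was set to 3 reads. Named genes were those listed the same way in at least 4 comparisons, the 3 largest folds per comparison and direction, genes in both directions, the 5 highest MEF peaks, genes with a promoter peak, and 2 folds per list. Hist1h4h, Hist1h4k, Hist1h2al, Hist1h2bq, Hist1h2br, Hist3h2bb, Abt1 and the testis histones are named outside that rule, after values were seen. The members and lists were chosen with earlier results of these data known. Alternatives were a stricter p-value, at least 15 reads, recentring, other assignments and backgrounds, other peak limits, another floor and no scaling.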

Additional observations from a re-analysis of the deposited data

How the results depend on the processing

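With 1 library per group no replicate could be left out. No paired analysis was possible because each group has 1 library and the labels give no replicate numbers. Under a deposited p-value below 1e-10, 3, 3, 2 and 2 histone genes lost signal at 1, 3, 5 and 7 dpi and 1 in primary neurons, shares above those of all genes at each time and below in primary neurons (all genes 1.74% to 2.43%). The gains at 3 and 5 dpi and in primary neurons came to 0 (all genes 0.233%, 0.477% and 0.126%), as they did with at least 15 reads required in the higher library (all genes 1.64%, 3.01% and 0.881%), which left the losses as they were. Recentred on the median log2 ratio of all listed regions, with a log2 of at least 1 away from it, losses numbered 8 in primary neurons (all genes 11.8%) and at 1 dpi (all genes 11.9%), 11.6% each, and 7 each at 3, 5 and 7 dpi, or 10.1%, where 12.5% to 13.9% of all genes did. If the 39 named histone genes are the denominator, 43.6%, 48.7%, 48.7% and 43.6% lost signal at 1, 3, 5 and 7 dpi and 46.2% in primary neurons, where 44.8%, 41.8%, 41.5%, 41.8% and 42.4% of all genes named in any list did, so the position of histone genes below all genes depends on the denominator in 4 of the 5 comparisons, and on the p-value limit at 1, 3, 5 and 7 dpi. The named genes are those that entered a list, so this denominator itself depends on the outcome. An alternative added after the data were seen, any region within 2000 bp of a RefSeq TSS, gave losses for 21, 22, 21, 19 and 23 of 62 histone genes (33.9%, 35.5%, 33.9%, 30.6% and 37.1%), where 39.8%, 37.3%, 37.0%, 37.3% and 37.9% of all genes had them. MEF peaks were assigned to 0 histone genes at a fold enrichment of at least 10, where 5.82% of all genes had one, and to 14 when limited to promoters and gene bodies, where 51.9% of all genes had one. Any MEF peak within 2000 bp of the TSS gave 15 of 62 (24.2%), where 27.2% of all genes had one, a smaller gap than under the deposited assignment. Regions counted once at the nearest TSS moved none of the 10 counts beyond 1.5 times. No read ratio changed direction with a floor of 1 read or with no scaling. Without scaling, the bounds of the 11 gains came to between 3-fold and 4.33-fold, and the other 96 ratios kept within their intervals. The gains rest on 9 to 13 reads against 0.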
